A study of Mus musculus with 6 samples.

Results

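The antioxidant and glutathione genes described here are 10 genes of superoxide removal, glutathione supply, thiol recycling and their control: Sod1, Sod2, Gclc, Gclm, Gsr, Txnrd1, Prdx1, Hmox1, Slc7a11 and Nfe2l2. They were found as every probe set of the array that the platform annotation assigns to one of these symbols, which gave 21 of 22690 probe sets. Of these, 16 name a single gene and cover 9 of the 10 genes, 5 of them with more than 1 probe set. The other 5 probe sets name Prdx1 together with the predicted gene Gm21399 and cannot be assigned to either. All 16 probe sets with a single gene exceeded the median of at least 1 array and were tested, 14 of them exceeded the median on all 6 arrays, and none had a signal under the floor of 18.2 that was used for low values. Slc7a11 1420413_at and Sod2 1417194_at exceeded it on 4 arrays, the stimulated ones. An Affymetrix probe set is a group of short probes whose brightness is summarised as 1 signal, so levels are compared between arrays and never between probe sets.

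The arrays carry RNA of bone marrow-derived macrophages, grown from marrow of C57BL/6J mice in medium conditioned by L929 cells. There were 2 genotypes, wild type and a knockout of IκBβ (the gene Nfkbib, an inhibitor of NF-κB), and 3 times of stimulation with 1 µg/ml LPS, the Toll-like receptor 4 ligand of Gram-negative bacteria: 0 h, 1 h and 5 h. Each genotype and time has 1 array. The sources used here name neither the animals behind each array nor the allele of the knockout. In the tests the 2 genotypes stand as the replicates of a time, and the 3 times as those of a genotype. The spread behind the p-values is therefore how far the LPS changes of the 2 genotypes differ. It holds no spread between replicate arrays or animals. The 2 genotypes also differ in the sex-linked genes given below.

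Superoxide dismutases turn superoxide into hydrogen peroxide, SOD1 mainly in the cytosol and SOD2 in the mitochondrial matrix. Glutathione is made from glutamate, cysteine and glycine: the transporter encoded by Slc7a11 brings in cystine, glutamate-cysteine ligase (catalytic subunit Gclc, modifier subunit Gclm) joins glutamate and cysteine, and glutathione reductase (Gsr) returns oxidised glutathione to its reduced form. The transcription factor NRF2, encoded by Nfe2l2, is held low by KEAP1 and drives many of these genes through antioxidant response elements, while Sod2 is a textbook NF-κB target in macrophages.

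Sequence upstream of 5 members is shown first, chosen to cover the kinds of time course described further on (early and lasting, passing, and falling). The RefSeq promoter table (GRCm38.p6) held 9 start sites for 7 of the 10 genes, with no entry for Gclc, Gsr and Hmox1. The 250 bases before each start were searched on both strands for the antioxidant response element core TGACNNNGC, the C/EBP-ATF response element core TGATGNAA (the site type bound by ATF4), the AP-1 site TGANTCA, the degenerate NF-κB consensus and the GC box GGGCGG. An AP-1 site can overlap an antioxidant response element core. The windows of Slc7a11, Txnrd1 (the second of its 3 starts), Nfe2l2, Gclm and Sod2 follow, and capitals mark the first 4 motifs.
Slc7a11 (chr3:50443614-50443863, minus strand): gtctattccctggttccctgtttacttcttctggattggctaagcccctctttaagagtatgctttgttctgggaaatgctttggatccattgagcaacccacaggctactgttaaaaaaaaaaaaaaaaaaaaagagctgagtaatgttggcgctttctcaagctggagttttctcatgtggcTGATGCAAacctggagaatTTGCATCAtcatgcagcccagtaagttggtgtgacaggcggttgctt
Txnrd1 (chr10:82858956-82859205, plus strand): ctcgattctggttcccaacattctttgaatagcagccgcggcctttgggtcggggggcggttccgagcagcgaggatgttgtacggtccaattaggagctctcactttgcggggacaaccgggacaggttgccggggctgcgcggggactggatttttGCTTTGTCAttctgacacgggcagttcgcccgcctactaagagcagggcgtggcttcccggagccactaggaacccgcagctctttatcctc
Nfe2l2 (chr2:75704664-75704913, minus strand): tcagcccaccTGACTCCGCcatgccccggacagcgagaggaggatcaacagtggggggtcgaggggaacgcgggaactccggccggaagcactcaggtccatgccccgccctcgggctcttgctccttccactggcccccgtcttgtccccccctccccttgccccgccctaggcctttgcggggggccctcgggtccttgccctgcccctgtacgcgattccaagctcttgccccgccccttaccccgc
Gclm (chr3:122245307-122245556, plus strand): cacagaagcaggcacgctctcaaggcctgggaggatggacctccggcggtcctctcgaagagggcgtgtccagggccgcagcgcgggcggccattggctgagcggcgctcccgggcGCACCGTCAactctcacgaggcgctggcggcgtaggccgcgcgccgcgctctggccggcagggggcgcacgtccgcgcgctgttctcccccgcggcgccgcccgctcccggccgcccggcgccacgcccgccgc
Sod2 (chr17:13007589-13007838, plus strand): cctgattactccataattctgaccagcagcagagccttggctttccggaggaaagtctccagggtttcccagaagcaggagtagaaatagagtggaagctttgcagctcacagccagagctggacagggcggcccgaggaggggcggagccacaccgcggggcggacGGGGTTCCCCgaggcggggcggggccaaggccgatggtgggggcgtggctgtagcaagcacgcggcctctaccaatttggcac

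The Slc7a11 window holds 2 C/EBP-ATF response element cores on opposite strands, starting 66 and 47 bases before the start, and 43.2% of its bases are G or C. It is the only member window with that core, which 3.45% of all 32851 windows in the table carry. An antioxidant response element core lies 92 bases before the second Txnrd1 start, 240 before that of Nfe2l2, 134 before that of Gclm and 56 before that of Sod1, and 10.2% of all windows carry one. The Prdx1 window carries one too, 133 bases before the start, where it shares bases with 1 of its 2 AP-1 sites (6.75% of all windows have an AP-1 site). The Sod2 window has 4 GC boxes (32.7% of all windows have at least 1) and, 83 bases before the start, an NF-κB consensus match that reads on both strands. The Prdx1 window holds another such match 170 bases before its start, and 7.25% of all windows carry one. This consensus was chosen after a stricter form of it had found no match in the 9 windows. A match is a run of letters in this window and no evidence of a bound factor, and a missing match says nothing on sites elsewhere.

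Array-wide facts that touch the members are these. Every array had a trimmed mean of 499.9, while the array median was 105.1 to 113.4 in wild type and 98.7 to 117.0 in knockout at 0 h and 1 h, and 70.7 and 65.2 at 5 h. Over all 12076 probe sets tested, the median log2 change was −0.17 at 1 h and −0.50 at 5 h, and member changes are also given against these medians. Nfkbib read 477, 3330 and 5007 in wild type, against 30.5, 136 and 56.1 in the knockout at 0 h, 1 h and 5 h, lower in knockout at each time. Xist read 52.1 to 80.4 on the wild-type arrays and 2149 to 5634 on the knockout arrays, and the Y-linked Eif2s3y 569.7 to 860 against 0.896 to 10.7, so genotype and sex cannot be told apart. All 10 macrophage markers (such as Cd68, Csf1r and Adgre1) were above the median on every array. Of 7 B cell markers with a probe set, 2 (Ighm and Cd22) were above the median on all 6 arrays. Cd79b was above it on 1, the wild-type array of 0 h. It read 118.6, 89.1 and 24.9 in wild type, against 111.3, 84.7 and 30.4 in the knockout. Pax5 and Ms4a1 were near or under the floor. The summed signal of the list was 3771 and 3935 at 0 h, 2646 and 2873 at 1 h, and 472 and 459.8 at 5 h. The neutrophil list (7 genes, 0 above the median on every array) summed to 227.0 to 322 at 0 h and 1 h and to 737 and 1341 at 5 h, mostly S100a8. The mast cell and basophil list (6 genes, 0 above the median on every array) summed to 122 to 182 at 0 h and 1 h and to 758 and 930.3 at 5 h, mostly Hdc. The dendritic cell list (6 genes, 2 above the median on every array, H2-Ab1 and Itgax) summed to 4097 to 4981 at 0 h and 1 h and to 3438 and 3300.2 at 5 h. The part of these lists in the changes below was not tested.

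**Figure D1:**
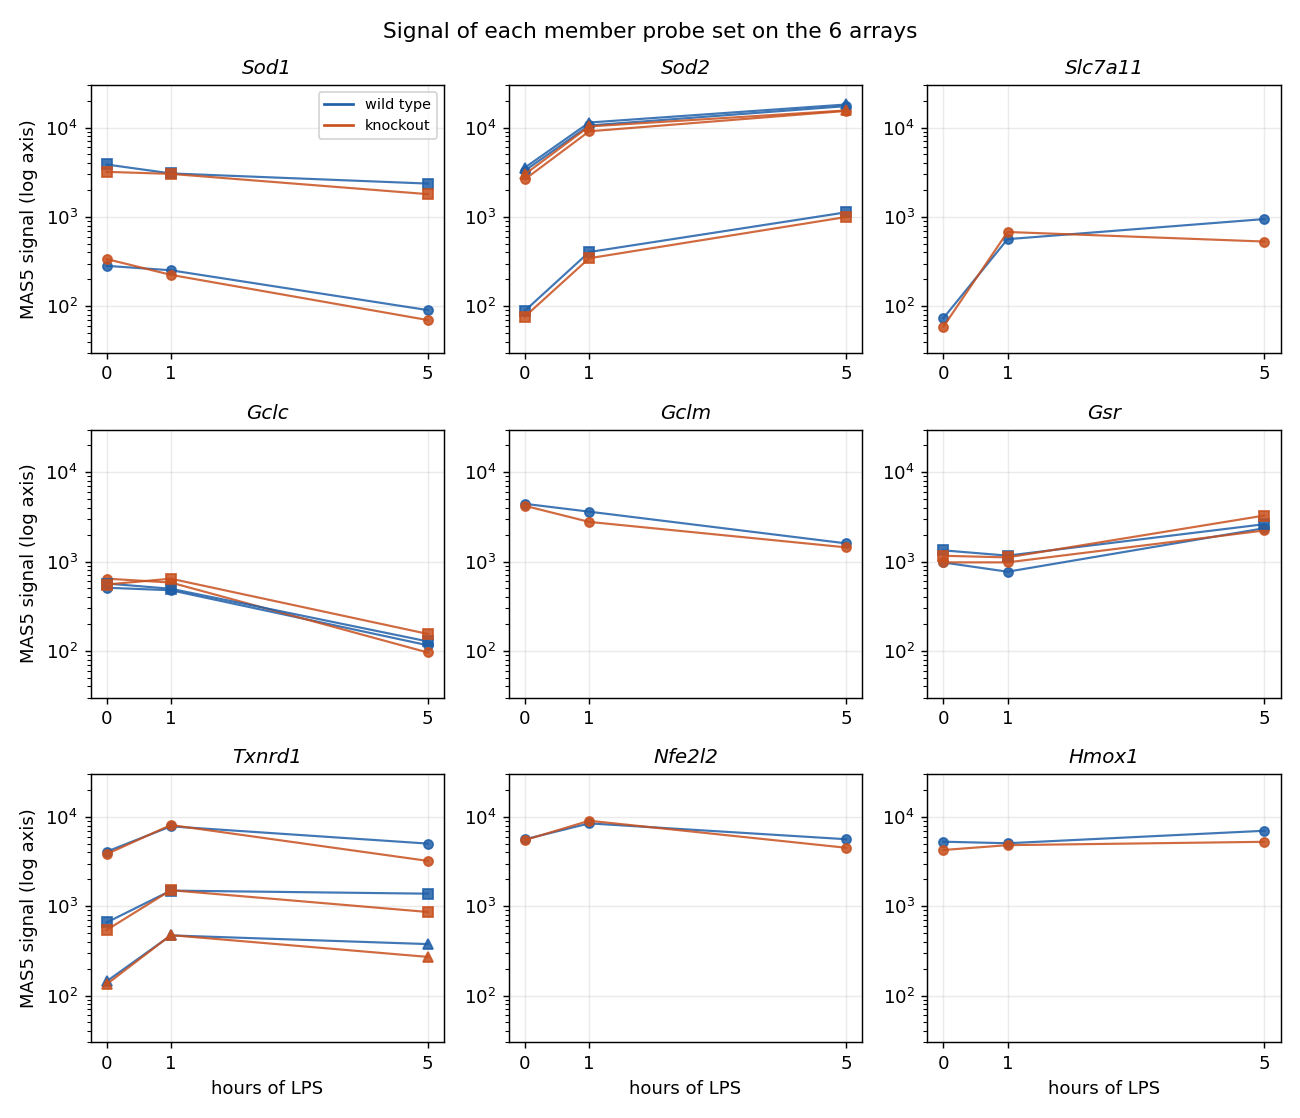
MAS5 signal (log axis) against hours of LPS for the 16 probe sets of 9 genes, wild type in blue and knockout in orange; each point is 1 array, and circles, squares and triangles are the probe sets of a gene in order of their ID. Sod2, Slc7a11 and Gsr end above their 0 h signal in both genotypes, Gclc, Gclm and Sod1 end below it, and Txnrd1 and Nfe2l2 are highest at 1 h in both genotypes.

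The members followed unlike time courses. Sod2 and Slc7a11 were up within 1 h and stayed up at 5 h, Gsr rose only between 1 h and 5 h, and both subunits of glutamate-cysteine ligase fell between 1 h and 5 h. Sod1 fell over the same step too, though the call of its brighter probe set was lost after median centring. Txnrd1 rose at 1 h on its 2 dimmer probe sets of 3. Its fall from 1 h to 5 h was called on the brightest and the dimmest, so only the dimmest had both calls. Nfe2l2 also fell from 1 h to 5 h. None of these falls of Txnrd1 and Nfe2l2 passed after median centring. Hmox1 passed no test. Of the 16 probe sets, limma called 6 higher and 0 lower at 1 h, where 5.34% of all probe sets were called higher and 4.64% lower. At 5 h it called 8 higher and 5 lower, where 20.8% were called higher and 50.1% lower (2513 and 6048 probe sets; 3519 and 4414 after quantile normalization, 4948 and 3005 after median centring). Called and changed at least 2-fold at 5 h were 7 higher and 4 lower member probe sets, against 13.2% and 32.5% of all. From 1 h to 5 h it called 5 higher and 8 lower, where 19% were called higher and 42.2% lower. The median log2 change of the member probe sets was 0.36 at 1 h and 0.61 at 5 h. With each of the 9 genes taken by its brightest probe set, the medians were 0.06 and 0.02. At that level 2 genes were called higher and 0 lower at 1 h, where 5.13% and 5.17% of all genes were. At 5 h 3 were called higher and 3 lower, where 19.2% and 53.4% of all genes were. Where the arrays of a time are said below to lie apart from others, this only describes the signals. The share of all probe sets that separate in the same way is not given here.

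Sod2, the mitochondrial superoxide dismutase, rose at each step. Its probe set 1448610_a_at read 3563 at 0 h, 11379 at 1 h and 18116 at 5 h in wild type, against 3001, 10298 and 15534 in the knockout. Probe set 1417193_at read 3301, 10544 and 17364 in wild type, against 2637, 9080 and 15351 in the knockout. The third, 1417194_at, was dimmer, with 89.0, 404 and 1124 in wild type, against 76.6, 344 and 996 in the knockout. Its 0 h signals were under their array's median, so it entered the test only through its stimulated arrays. Every array at 1 h was above every array at 0 h on all 3 probe sets, and every array at 5 h above every array at 1 h. The log2 change at 5 h was 2.36 (SE 0.11), 2.47 (SE 0.11) and 3.68 (SE 0.11) in that order, each with limma's adjusted p between 0.00038 and 0.000403. At 1 h it was 1.73, 1.73 and 2.17 (adjusted p = 0.00503, 0.00527 and 0.00328), and from 1 h to 5 h a further 0.63, 0.74 and 1.505 (adjusted p = 0.00957, 0.00673 and 0.00115). The probe sets thus differ in the size of the rise but not in its course, and the dim one gave the largest change. With no filter the dim one still passed at 1 h (limma's adjusted p = 0.0221).

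Sod1, the cytosolic copper-zinc superoxide dismutase, went the other way. Its brighter probe set, 1451124_at, read 3857, 3065 and 2359 in wild type at 0 h, 1 h and 5 h, and 3191, 3028 and 1796 in knockout. The dimmer 1435304_at read 283, 252 and 90.3 in wild type, against 337, 224 and 69.9 in the knockout. Both arrays at 5 h were below all 4 earlier arrays on each probe set. At 5 h the bright probe set fell by 0.77 on the log2 scale (SE 0.14, adjusted p = 0.009) and the dim one by 1.96 (SE 0.19, adjusted p = 0.00145); at 1 h neither passed (log2 change −0.20 and −0.38). Between 1 h and 5 h the changes were −0.57 (adjusted p = 0.0268) and −1.58 (adjusted p = 0.00347); for the bright probe set this step was 0.0185 after median centring (adjusted p = 0.932), and it was called in 1 of the 6 fits that leave out an array. Against the median of all probe sets the 5 h changes were −0.27 and −1.46. After median centring the bright probe set stood at −0.01 (adjusted p = 0.972) and the dim one at −1.196 (adjusted p = 0.00208), so only the call of the dim one outlasts that scaling. The call of the bright probe set was also lost when either 0 h array was left out (adjusted p = 0.0623 without wild type, 0.052 without knockout).

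Slc7a11, the cystine-glutamate exchanger subunit, had the widest range of the members, 4.01 on the log2 scale. It read 73.3 at 0 h, 562 at 1 h and 945 at 5 h in wild type, against 58.8, 677 and 529 in the knockout. All 4 stimulated arrays were above both unstimulated ones, and the 1 h and 5 h arrays overlapped. Both unstimulated signals were under their array's median, so the probe set entered the test only through its stimulated arrays. The log2 change was 3.23 at 1 h (SE 0.29, adjusted p = 0.01) and 3.43 at 5 h (SE 0.29, adjusted p = 0.00106), a fold of 9.40 and 10.8. From 1 h to 5 h it was 0.20 (95% interval −0.58 to 0.98, adjusted p = 0.587), with 0.75 in wild type and −0.36 in knockout. With no filter the 1 h change did not pass (limma's adjusted p = 0.0845), while the 5 h change did (adjusted p = 0.0181). The promoter window of Slc7a11, printed above, is the one with the paired C/EBP-ATF response element cores.

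Glutamate-cysteine ligase is the enzyme that uses the imported cysteine for the rate-limiting step of glutathione synthesis. The RNA of both its subunits fell between 1 h and 5 h, after Slc7a11 RNA had risen by 1 h. The catalytic subunit gene Gclc read 567, 496 and 128 in wild type, against 553, 643 and 155 in the knockout on 1455959_s_at. On 1424296_at it read 509, 477 and 115 in wild type, against 643, 582 and 95.9 in the knockout. Gclm, the modifier subunit gene, read 4428, 3618 and 1598 in wild type, against 4205, 2779 and 1441 in the knockout. On all 3 probe sets both 5 h arrays were below the 4 others, while for Gclc the arrays of 1 h and 0 h overlapped. At 5 h the log2 change of Gclc was −2.00 (SE 0.15, adjusted p = 0.000813) and −2.44 (SE 0.19, adjusted p = 0.00094), and that of Gclm −1.51 (SE 0.13, adjusted p = 0.00117). These are −1.498, −1.95 and −1.01 against the median of all probe sets. The calls held after median centring, where the changes were −1.23, −1.68 and −0.75 (adjusted p = 0.00269, 0.000834 and 0.00734). At 1 h none of the 3 passed, with Gclm at −0.44 (adjusted p = 0.115) and Gclc at 0.01 and −0.12.

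Gsr, which encodes glutathione reductase, rose late. Probe set 1421817_at read 1334, 1165 and 2621 in wild type, against 1161, 1113 and 3275 in the knockout. Probe set 1421816_at read 977, 769 and 2362 in wild type, against 979, 979.3 and 2229 in the knockout. The 5 h arrays were the 2 highest on both probe sets. The log2 change at 5 h was 1.24 (SE 0.17, adjusted p = 0.00375) and 1.23 (SE 0.15, adjusted p = 0.00291), while at 1 h the values were −0.13 and −0.17 (adjusted p = 0.63 and 0.481). From 1 h to 5 h it rose by 1.36 and 1.40 (adjusted p = 0.00392 and 0.00285).

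Txnrd1, the cytosolic thioredoxin reductase, was highest at 1 h on all 3 probe sets in both genotypes. The brightest, 1421529_a_at, read 4081, 7844 and 5030 in wild type, against 3836, 8118 and 3220 in the knockout. Probe set 1424486_a_at read 658, 1496 and 1382 in wild type, against 542, 1512 and 862 in the knockout. The dimmest, 1424487_x_at, read 144, 471 and 377 in wild type, against 134, 475 and 271 in the knockout. At 1 h the groups did not overlap on any of the 3, yet the change passed on the 2 dimmer ones (log2 1.33, adjusted p = 0.0311, and 1.77, adjusted p = 0.0109) and not on the brightest (log2 1.01, adjusted p = 0.0591). At 5 h the brightest stood at 0.02 (95% interval −0.54 to 0.59), with its knockout array under both arrays of 0 h, and the others were still up by 0.87 (adjusted p = 0.0176) and 1.202 (adjusted p = 0.00363). The first of these calls was lost without either 0 h array or the wild-type 5 h array (adjusted p = 0.0795, 0.0707 and 0.0579). From 1 h to 5 h the brightest fell by 0.99 (adjusted p = 0.0162) and the dimmest by 0.57 (adjusted p = 0.0393), and the third stood at −0.46 (adjusted p = 0.11). After median centring the brightest was called higher at 5 h (0.79, adjusted p = 0.0172). The changes from 1 h to 5 h were then −0.40 (adjusted p = 0.132), 0.02 and 0.12, in the order brightest, dimmest and 1424486_a_at. After quantile normalization the decline of the brightest was called (−1.15, adjusted p = 0.0131) and that of the dimmest was not (−0.18, adjusted p = 0.317). The dimmest was called lower in 1 of the 6 fits that leave out an array. The probe sets also disagree on whether Txnrd1 was still above its resting level at 5 h, and the annotation used here does not say which transcripts each one reads.

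Nfe2l2, the NRF2 gene, moved like the brightest Txnrd1 probe set, with a peak at 1 h. It read 5616, 8467 and 5629 in wild type, against 5504, 9063 and 4516 in the knockout. Both 1 h arrays were above the 4 others, and the 5 h arrays spanned those of 0 h. The log2 change at 1 h was 0.66 (SE 0.15) and did not pass (adjusted p = 0.0711), and at 5 h it was −0.14 (adjusted p = 0.435). From 1 h to 5 h it fell by 0.80 (adjusted p = 0.0117). After median centring the values were 0.83 at 1 h (adjusted p = 0.0336), 0.62 at 5 h (adjusted p = 0.0189) and −0.21 from 1 h to 5 h (adjusted p = 0.299), so which of these steps passed turned on the scaling.

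Hmox1, the inducible heme oxygenase that breaks down heme to biliverdin, iron and carbon monoxide, passed at no time. It read 5281, 5072 and 6998 in wild type, against 4263, 4830 and 5265 in the knockout, and the arrays of 0 h overlapped with those of 1 h and of 5 h, while both 5 h arrays were above both 1 h arrays. The log2 change was 0.06 at 1 h (95% interval −0.31 to 0.43, adjusted p = 0.78) and 0.36 at 5 h (95% interval −0.01 to 0.72, adjusted p = 0.0746). After median centring it was 1.12 at 5 h (adjusted p = 0.00225), and after quantile normalization 0.07 (adjusted p = 0.671). The 5 probe sets shared by Prdx1 (a peroxiredoxin, which reduces hydrogen peroxide with thioredoxin) and Gm21399 read 1209 to 20728. Their log2 change at 5 h was 0.04 to 0.42 in wild type and 0.10 to 1.19 in knockout, given without a test because they name no single gene.

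**Figure D2:**
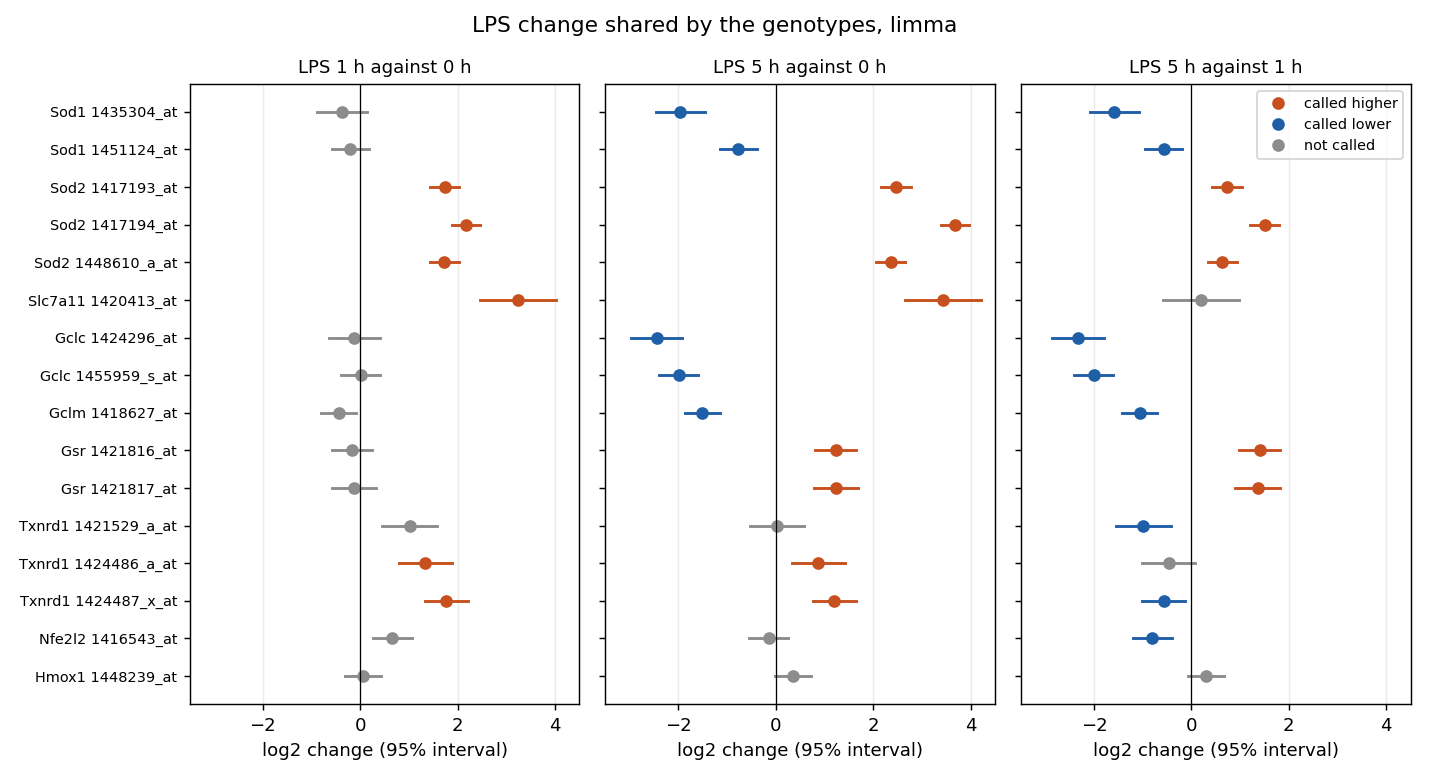
Log2 change (x axis) of each of the 16 probe sets for 1 h against 0 h, 5 h against 0 h and 5 h against 1 h; points are limma's estimates over both genotypes, bars their 95% intervals, orange called higher, blue called lower and grey not called at adjusted p under 0.05. At 1 h the 6 calls are those of Sod2, Slc7a11 and 2 Txnrd1 probe sets, and at 5 h both Gclc probe sets, Gclm and both Sod1 probe sets are called lower.

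The calls at 1 h rest on few arrays. Without the wild-type 1 h array 1 member probe set was called higher (Slc7a11, adjusted p = 0.0442), and without the knockout 1 h array again 1 (Sod2 1417194_at, adjusted p = 0.0471), since 1 array then stands for the time. The 5 h counts were 7 to 8 higher and 4 to 5 lower when any 1 array was left out.

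Between the genotypes no member passed. For knockout against wild type over the 3 times limma called 0 of the 16 probe sets higher and 0 lower, where it called 0% and 0.00828% of all probe sets, and 0 member probe sets had an unadjusted p under 0.05 (997 of all 12076 did). Log2 differences ran from −0.32 (Txnrd1 1424486_a_at) to 0.21 (Gclc 1455959_s_at), with adjusted p of 0.606 to 0.975. The 95% intervals differed in width between members, from −0.93 to 0.34 for Slc7a11 to −0.49 to 0.01 for Sod2 1417193_at, and each held 0. Sod2 was lower in knockout at each time on each of its 3 probe sets, by 0.14 to 0.32 on the log2 scale, and passed on none (adjusted p = 0.606, 0.615 and 0.618).

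At single times the difference rests on 1 array a genotype and has no test. At 0 h and at 1 h no member probe set differed by 1.5-fold or more, where 3.75% of all were at least 1.5-fold higher and 3.04% lower at 0 h, and 4.26% and 5.8% at 1 h. At 5 h 3 of the 16 were at least 1.5-fold lower in knockout and 0 higher, where 8.78% of all were lower and 5.95% higher. The 3 were Slc7a11, at −0.84 on the log2 scale (945 in wild type and 529 in knockout), and 2 Txnrd1 probe sets, at −0.64 and −0.68, with the third at −0.48. Of the 16 probe sets, 14 were lower in knockout at 5 h, with a median of −0.29; of all probe sets 55.5% were lower, with a median of −0.04. The 16 probe sets come from 9 genes and share the same 2 arrays. Higher in knockout at 5 h were 1 probe set each of Gclc (0.28) and Gsr (0.32), while the other probe set of these genes stood at −0.27 and −0.08. Nfe2l2 stood at −0.32 and Hmox1 at −0.41.

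**Figure D3:**
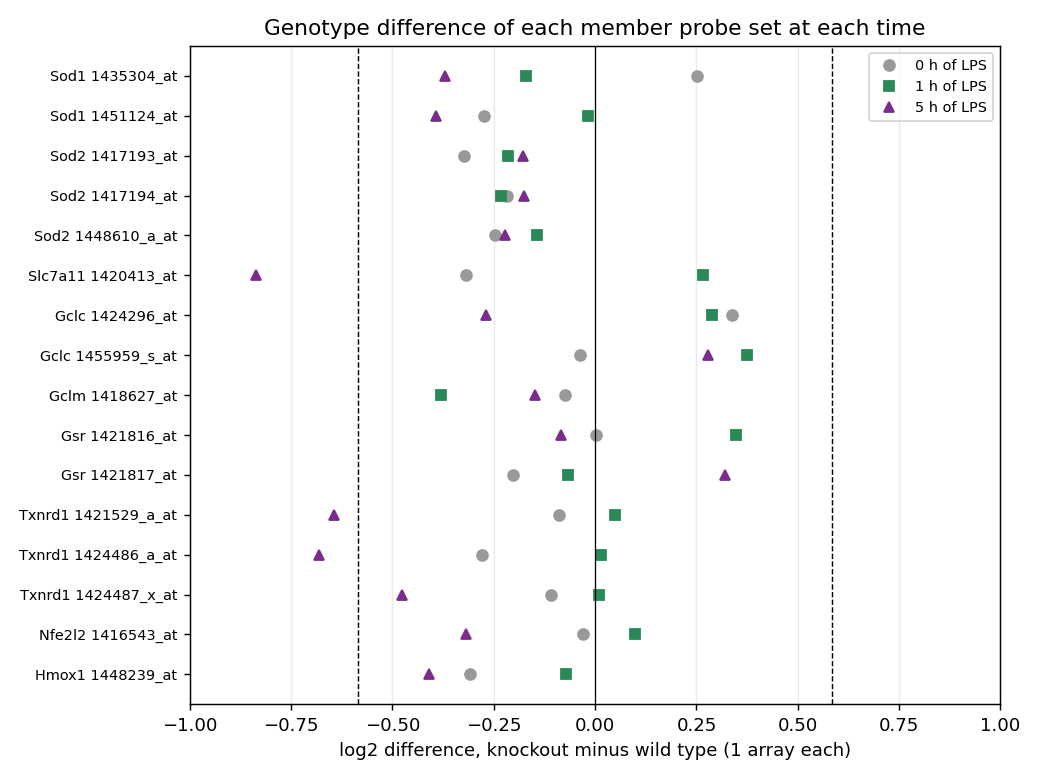
Knockout minus wild type on the log2 scale (x axis) for each of the 16 probe sets at 0 h (circles), 1 h (squares) and 5 h (triangles); each point compares 1 array with 1 array, and dashed lines mark 1.5-fold. The 5 h points of Slc7a11 and of 2 Txnrd1 probe sets lie past the left dashed line, and no other point lies past either line.

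Genes with the most similar time course were taken as those whose log2 signals, after removing their mean over the 6 arrays, lay nearest to those of the 3 members with the largest range. Nearest to Slc7a11 were Zc3h12a (distance 0.65), Pde4b (0.80) and Trim13 (0.84). Zc3h12a, which encodes the RNase regnase-1, read 178, 1693 and 2197 in wild type, against 215, 2382 and 1903 in the knockout. Nearest to Sod2 were Clic4 (0.18), Plpp3 (0.27) and Plagl2 (0.28); Clic4, a chloride intracellular channel gene, read 3162, 10640 and 17800 in wild type, against 3057, 9269 and 15240 in the knockout. Nearest to Gclc were Atp6v0a1 (0.24), a subunit gene of the lysosomal proton pump, Clec10a (0.27) and Baiap2 (0.28). Atp6v0a1 read 1323, 1276 and 276 in wild type, against 1350, 1441 and 327 in the knockout. These distances are descriptions over 6 arrays and carry no p.

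Other genes of the same pathways were counted from fixed lists, each gene by its brightest probe set, where 5.13% of all 7508 genes were called higher and 5.17% lower at 1 h, and 19.2% and 53.4% at 5 h. The median change of all genes at 5 h was −0.57. For glutathione synthesis, recycling and use, 27 of 36 genes were tested. At 1 h 1 rose, Ggct (log2 1.99, limma's adjusted p = 0.00382), which encodes gamma-glutamylcyclotransferase. Without either 1 h array it was not called (log2 2.045 without wild type and 1.941 without knockout). By 5 h there were 4 risen and 20 fallen genes, and 3 others missed the threshold; the list median was −0.98, and −0.21 with 7 risen and 7 fallen after median centring. There were 13 fallen without the knockout array of 0 h, and 2 risen without the wild-type array of 0 h or of 5 h. Ggct rose by 3.25 and the glutaredoxin gene Glrx by 2.02. The glutathione synthetase gene Gss fell by 1.70, the glutathione peroxidase gene Gpx1 by 1.48, Hagh by 2.17 and Oplah by 2.36. The Oplah value is a bound, as both its 5 h signals were under the floor. Oplah was above the median on only 1 array, that of the knockout at 0 h, and entered the test through it. Ggct read 86.0, 331 and 823 in wild type, against 76.9, 317 and 729 in the knockout. Its 0 h signals were under their array's median, so it entered the test only through its stimulated arrays. With no filter it still passed at 1 h and at 5 h (limma's adjusted p = 0.032 and 0.004).

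In the thioredoxin, peroxiredoxin and methionine sulfoxide list, 13 of 16 genes were tested; at 1 h 0 rose and 2 fell, and at 5 h 1 rose and 10 fell, with a median of −0.96 (−0.20, with 3 risen and 3 fallen, after median centring). Txn1, the thioredoxin gene, rose by 1.07 at 5 h (adjusted p = 0.00184), though its dimmer probe set stood at −0.17. Txnip, the thioredoxin-binding inhibitor, fell by 3.21 at 1 h (adjusted p = 0.00587), a call lost without either 1 h array (adjusted p = 0.0529 and 0.0598). It was still down at 5 h, at −2.09, having gone from 5570 and 6224 at 0 h to 622 and 654 at 1 h and 1045 and 1839 at 5 h. Txnrd2, the mitochondrial thioredoxin reductase gene, fell by 4.10 at 5 h, a bound, as both 5 h signals were under the floor, and its other probe set stood at −1.22. Msrb2, a methionine sulfoxide reductase gene, fell by 1.45 at 1 h and by 1.70 at 5 h. The 1 h call was held in 2 of the 6 fits that leave out an array. Msrb2 was above the median only on the 0 h arrays and entered the test through them, and Txnrd2 through those of 0 h and 1 h. With no filter the 1 h calls of Msrb2 and Txnip were lost (limma's adjusted p = 0.0824 and 0.0677). Without either 1 h array 0 genes of the list were called at 1 h.

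Of 13 genes for superoxide, peroxide and heme detoxification 10 were tested. The metallothionein genes Mt2 (log2 2.51 at 1 h and 3.36 at 5 h) and Mt1 (0.87 and 1.37) rose at both times, though the 1 h call of Mt1 was lost with any 1 array left out. The dim second probe set of Mt1 read 19.0, 195 and 5.35 in wild type, against 15.1, 205 and 6.58 in the knockout. It was thus highest at 1 h in both genotypes. At 5 h it stood at −0.03, where both 5 h signals and the knockout signal of 0 h were under the floor. At 5 h Blvra, the biliverdin reductase gene, fell by 2.36, Pon2 by 1.68, the catalase gene Cat by 1.52 and Ccs, the copper chaperone of SOD1, by 1.17, and 4 did not pass. The median at 5 h was −0.34, but 0.42 after median centring, with 6 risen and 3 fallen. Mt2 read 1191, 6639 and 11600 in wild type, against 1076, 6242 and 11610 in the knockout.

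Among NRF2 regulators and partners, 10 of 12 genes were tested; 2 rose and 1 fell at 1 h, and 4 rose and 3 fell at 5 h. After median centring 7 rose and 0 fell at 5 h, with a median of 0.92 in place of 0.16. There was 1 fallen at 5 h without the knockout array of 0 h, 2 risen without the wild-type array of 5 h, and 0 risen at 1 h without either 1 h array. Maff, a small Maf protein that pairs with NRF2 and related factors, rose by 5.53 at 1 h (SE 0.49, adjusted p = 0.01), a call lost without either 1 h array (adjusted p = 0.0876 and 0.0881). By 5 h it was back to 2.02 above 0 h (adjusted p = 0.0209), a call lost without the wild-type 5 h array (1.35, adjusted p = 0.104). It read 23.7, 1680 and 189 in wild type, against 52.6, 1585 and 108 in the knockout. Both unstimulated signals were under their array's median, so Maff entered the test only through its stimulated arrays. With no filter it passed at neither 1 h nor 5 h (limma's adjusted p = 0.0865 and 0.121). Keap1, the adaptor that marks NRF2 for degradation, fell by 0.83 at 1 h (adjusted p = 0.0367) and rose by 1.00 at 5 h (adjusted p = 0.0036), reading 693, 436 and 1433 in wild type, against 749.5, 375 and 1445 in the knockout. Its 1 h arrays were the 2 lowest and its 5 h arrays the 2 highest. The fall of Keap1 at 1 h did not pass after median centring (−0.66, adjusted p = 0.0538). The calls of Keap1 and Atf4 at 1 h were lost with any 1 array left out. Atf4 rose by 0.77 at 1 h (adjusted p = 0.0479) and Mafk by 1.56 at 5 h (adjusted p = 0.00131). At 5 h this Atf4 probe set stood at 0.25 and a dimmer one at 1.095. The dimmer Atf4 probe set read 309, 523 and 701 in wild type, against 361, 531 and 726 in the knockout. A dimmer Keap1 probe set read 360, 157 and 963 in wild type, against 402, 173 and 963 in the knockout. Nfe2l1 fell by 0.71 and Dpp3 by 1.08 at 5 h, where Nfe2l1 turned to 0.05 after median centring.

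For NADPH production and other NRF2 targets, 17 of 22 genes were tested; 0 rose and 1 fell at 1 h, and 0 rose and 14 fell at 5 h, with a median of −0.81 (−0.05, with 3 risen and 6 fallen, after median centring). The number fallen was 8 without the knockout array of 0 h and 11 to 13 without any other. Cbr3, a carbonyl reductase gene, fell by 3.02 at 5 h. Idh1, the cytosolic NADPH-forming isocitrate dehydrogenase gene, changed by −2.71. Osgin1 changed by −2.45 (and by −2.05 at 1 h, called in 2 of the 6 fits that leave out an array). Nqo1, a standard NRF2 target, changed by −0.76. That lies near the list median of −0.81, which median centring brought to −0.05. The call of Nqo1 after that scaling is not given here. Of the NADPH oxidase list, which makes superoxide, 6 of 9 genes were tested and 0 passed at 1 h. At 5 h Rac2 (0.62) and Cybb (0.45), the gene of the catalytic subunit, rose and Rac1 fell by 0.85 (its other probe set stood at −0.07), with a median of −0.15 (0.61, with 5 risen and 0 fallen, after median centring). The call of Rac2 was lost without either 0 h array (adjusted p = 0.061 and 0.0733). Cybb did not pass after quantile normalization (adjusted p = 0.0694) or with any 1 array left out, and Rac1 did not after median centring (adjusted p = 0.654). No gene of the 6 lists was called between the genotypes, where limma called 0.0133% of all genes lower and 0% higher.

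**Figure D4:**
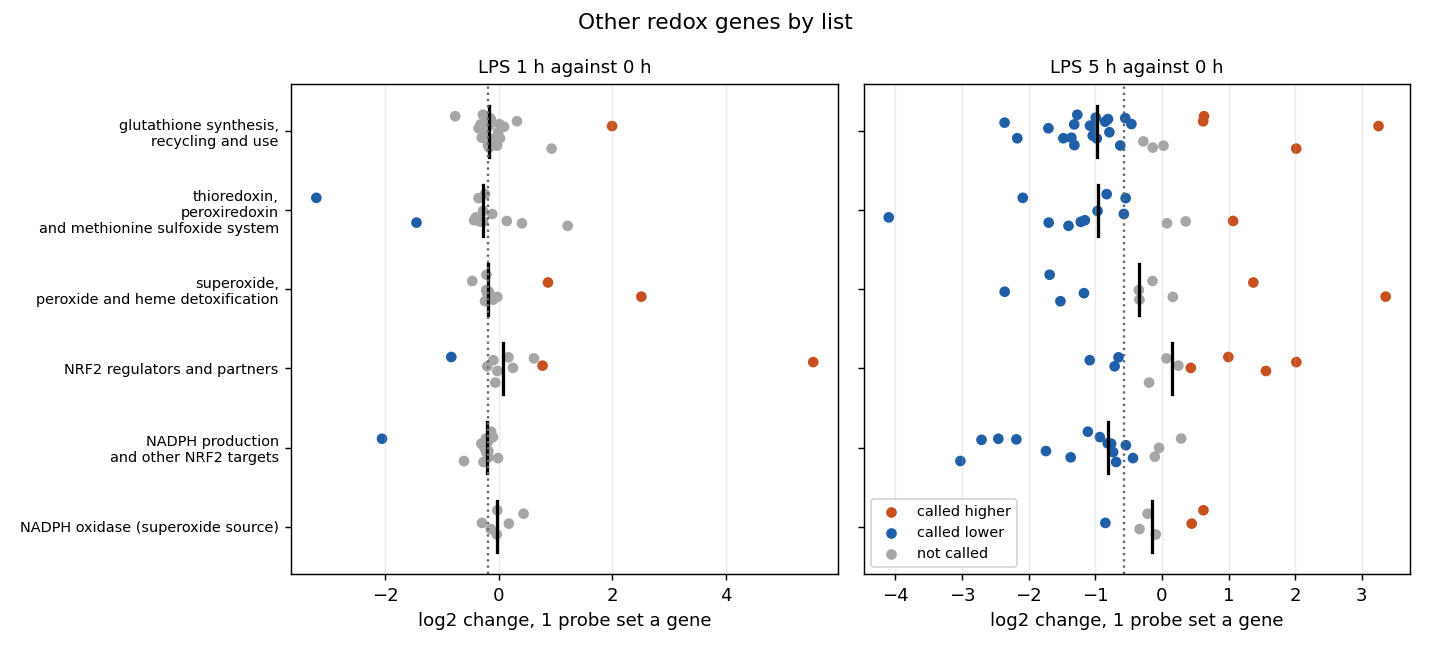
Log2 change (x axis) of each tested gene of the 6 lists at 1 h and at 5 h against 0 h; points are genes by their brightest probe set (orange called higher, blue called lower, grey not called), the black bar is the list median and the dotted line the median of all genes. At 5 h 20 of 27 genes of the glutathione list and 14 of 17 of the NADPH list are blue, and the dotted line itself lies at −0.57.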

How the data were processed

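The 6 RNA samples were hybridised to Affymetrix Mouse Genome 430A 2.0 arrays. The deposited values are intensity, MAS5 signals on a linear scale, per the submitters' processing notes; the sources used here give no MAS5 version or scaling target. Probe sets were named from the platform annotation: 20393 have 1 gene, 691 several and 1606 none. A floor of 18.2, the 25th percentile over the 6 arrays, replaced lower signals before log2. The 12076 probe sets with 1 gene and above the median of at least 1 array went into an additive genotype-plus-time model (limma 3.58.1, R 4.3.3), which leaves 2 residual degrees of freedom. Benjamini-Hochberg adjustment covered all 12076, with calls at adjusted p under 0.05. A genotype-by-time interaction leaves no residual, so single-time genotype differences are values. The gene level uses each gene's brightest tested probe set. The fit was tested on simulated data. Named genes are all member probe sets, the check genes, the 2 largest called changes each way of each list at 1 h and at 5 h, and the 3 nearest profiles of the 3 members with the largest range; Gss, Gpx1, Cat, Ccs, Nqo1 and the markers were named after their values were seen. Members and lists were chosen with earlier results of these data known. Alternatives were a floor at the 10th percentile, quantile normalization, median centring, no filter, the gene-level fit and leaving out each array.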

Additional observations from a re-analysis of the deposited data

Results flagged for a closer look

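In 6 cases the LPS change of a member probe set had opposite signs in the genotypes. Each compares 1 array with 1 array in each genotype, and the differences were not tested. For Slc7a11 from 1 h to 5 h the log2 change was 0.75 in wild type and −0.36 in knockout, a difference of −1.1. Txnrd1 1421529_a_at at 5 h changed by 0.30 and −0.25 (difference −0.554), and Nfe2l2 at 5 h by 0.00 and −0.29 (difference −0.289). At 1 h the changes were −0.19 and 0.22 for Gclc 1455959_s_at (difference 0.411), −0.34 and 0.00 for Gsr 1421816_at (difference 0.345), and −0.06 and 0.18 for Hmox1 (difference 0.238). The wild-type change of Nfe2l2 (0.0034) and the knockout change of Gsr 1421816_at (0.00036) were very small. The share of all probe sets with opposite signs is not given here. The SD of knockout minus wild type over all probe sets was 0.36, 0.41 and 0.47 at 0 h, 1 h and 5 h. That SD is of differences at a single time, while the differences above also subtract an earlier time, so it is no measure of their spread.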

How the results depend on the processing

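No paired analysis was possible because each genotype and time has 1 array and no label ties arrays beyond genotype and time; the genotype term of the additive model already compares the times within each genotype. The member counts at 5 h (8 higher, 5 lower) and between the genotypes (0 and 0) stayed within 1.5 times under every alternative run. At 1 h, 3 instead of 6 were called higher with no filter, and 1 to 7 when 1 array was left out. From 1 h to 5 h, 4 instead of 8 were called lower after median centring and 5 with no filter; with 1 array left out, 4 to 9 were lower and 3 to 5 higher. After median centring the sign turned for Sod1 1451124_at from 1 h to 5 h (0.0185), Txnrd1 1424486_a_at (0.12) and 1424487_x_at (0.0179) over the same step, Gclc 1424296_at (0.0594), Gsr 1421816_at (0.00599) and 1421817_at (0.0498) at 1 h, and Nfe2l2 (0.62) and Nfe2l1 (0.0536) at 5 h; median centring sets each array's median equal, and the array medians differ. Txnrd1 1421529_a_at at 5 h turned to −0.22 after quantile normalization. With 1 array left out, changes that did not pass to begin with and turned sign ranged from −0.28 to 0.0453 for Gclc 1424296_at (LPS 1 h against 0 h), −0.17 to 0.19 for Gclc 1455959_s_at (LPS 1 h against 0 h), −0.37 to 0.0221 for Gsr 1421816_at (LPS 1 h against 0 h), −0.29 to 0.0362 for Gsr 1421817_at (LPS 1 h against 0 h), −0.29 to 0.34 for Txnrd1 1421529_a_at (LPS 5 h against 0 h), −0.0835 to 0.21 for Hmox1 1448239_at (LPS 1 h against 0 h), −0.23 to 0.62 for Slc7a11 1420413_at (LPS 5 h against 1 h), −0.32 to 0.0352 for Nfe2l2 1416543_at (LPS 5 h against 0 h). Leaving out 1 array leaves 1 residual degree of freedom and, for its time, 1 array that is assumed to vary like the others. Signals near the floor limit Txnrd2 and Oplah, whose 5 h signals were under it. With no filter the 1 h calls of Txnip, Msrb2, Mt1, Maff, Atf4, Keap1 and Osgin1 were lost. The 5 h call of Maff was lost too.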
